A study of Mus musculus with 36 samples.

Results

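Beta-hydroxybutyrate (βOHB) was given to primary mouse myotube cultures, and gene expression in 3 treated libraries was compared with that in 3 control libraries. These 6 libraries were taken by their labels from a series of 36 RNA-seq libraries. The series covered 4 primary cell types, namely adipocytes, macrophages, myotubes and hepatocytes, each as control, with βOHB and with butyrate, in 3 libraries a group. The question was whether a ketone body acts on gene expression. Myotubes came from myoblasts of hindlimb muscle of male C57Bl/6 mice, released with collagenase and dispase, depleted of fibroblasts by a short spell on a flask without coating, and then differentiated. The treated cultures received 5 mM βOHB for 6 h in differentiation medium, and the controls received PBS. The libraries called macrophages were bone marrow-derived macrophages (BMDMs), which were treated in DMEM with serum and not in differentiation medium. The labels do not say whether replicates were separate cultures or animals, so the p-values measure the spread between these libraries, which may be technical.

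βOHB is made in the liver during fasting and is burned by muscle, where BDH1 and OXCT1 return it to the citric acid cycle. It has also been proposed to inhibit histone deacetylases and to bind receptors at the cell surface. Myotubes are multinucleated fibres that form when myoblasts leave the cell cycle and fuse. A primary culture from digested muscle can still hold some dividing myoblasts, fibroblasts and resident macrophages, and a bulk library sums the RNA of all cells present.

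The 6 libraries held between 20601857 and 22984183 estimated counts each. The label of myotubes was met by the marker genes. Acta1, skeletal α-actin, stood between 6987 and 9381 CPM (counts scaled to the size of the library) in the 6 libraries, and in control BMDMs it stood at 6.44 CPM. Macrophage markers were also present. The sum of 25 macrophage markers was 2.59%, 2.11% and 0.916% of its level in control BMDMs in control 1, 2 and 3, and 0.508%, 0.376% and 0.876% in βOHB 1, 2 and 3. Control 3 thus stood apart from the other controls and near βOHB 3. βOHB 3 also carried RNA typical of hepatocytes: 244 genes of high level in hepatocytes and under 0.2 CPM in myotube controls summed to 107 CPM there and to between 7.65 and 9.95 CPM in the other 5 libraries.

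The clearest difference with βOHB was a lower level of macrophage genes. Of 15340 genes tested by quasi-likelihood in edgeR, with p adjusted after Benjamini and Hochberg, 393 (2.56%) were down-regulated and 53 (0.346%) were up-regulated at an adjusted p under 0.05. Down-regulated genes thus made up 88.1% of the 446 calls. Their log2 changes ran from −3.67 to −0.22, with a median of −1.56, and the up-regulated genes had a median of 0.27. All 3 βOHB libraries lay below all 3 controls in 290 of the 393 genes and above them in 52 of the 53, orders met by 8.34% and 14.6% of all genes tested. The calls were made on the same libraries, so these counts only describe them.

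These calls rest on a spread estimated over all 36 libraries. In a fit of the 9 myotube libraries alone, or of the 6 alone, 0 genes passed. In the fit of 9 libraries the smallest adjusted p was 0.287, and 982 genes were lower and 438 higher at an unadjusted P under 0.05. The number of down-regulated genes was 169 without control 1, 240 without βOHB 1 and 204 without βOHB 2. limma-voom called 281 genes down-regulated and 72 up-regulated, DESeq2 549 and 70, and 250 and 37 genes were called by edgeR, limma-voom and DESeq2 alike.

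**Figure D1:**
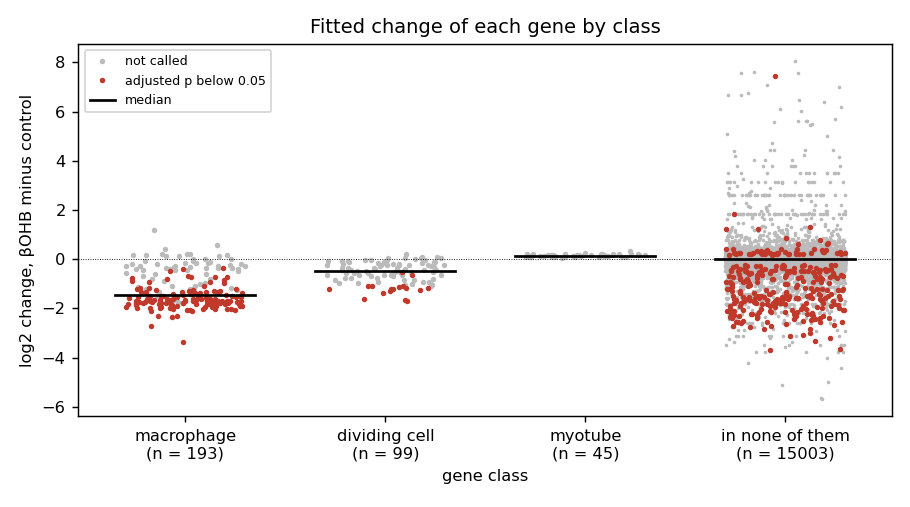
Fitted log2 change (βOHB minus control, y axis) of each of the 15340 genes tested, by class (x axis). Red points passed an adjusted p under 0.05 and black bars are medians. The 193 macrophage genes lie around a median of −1.44, the 99 dividing-cell genes around −0.48, and the 45 myotube genes lie just above 0.

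Genes were first divided by the cells they mark. The macrophage class held 193 genes: 186 that were at 10 CPM or more in control BMDMs and at least 16 times the level in control adipocytes and hepatocytes, after adding 1 CPM, joined with the marker list. No myotube library entered that rule. In this class 128 genes (66.3%) were down-regulated and 0 were up-regulated, where 2.56% and 0.346% of all genes were. At an unadjusted P under 0.05, 162 were lower and 2 higher, where 7.01% and 6.7% of all genes were. limma-voom called 97 of them down-regulated (1.83% of all genes) and DESeq2 143 (3.58% of all genes), and both called 0 up-regulated. The median log2 change of the class was −1.44, against 0.02 over all genes. The class supplied 32.6% of all down-regulated genes.

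How the libraries ordered themselves within the class was uneven. Control 3 was the lowest control in 169 of the 193 genes, and βOHB 3 was the highest treated library in 148. In 81 genes control 3 lay below βOHB 3. All 3 βOHB libraries lay below all controls in 96 genes and above them in 4. Without control 1 the number of down-regulated genes in the class fell from 128 to 78.

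The summed level of the 25 macrophage markers was 855, 697 and 303 CPM in control 1, 2 and 3, and 168, 124 and 289 CPM in βOHB 1, 2 and 3. The highest treated library was thus only slightly below the lowest control. Means were 618 ± 284 CPM (SD, n = 3) and 194 ± 85.6 CPM (SD, n = 3), a 3.19-fold difference. The exact two-sided permutation test of the 3 against 3 libraries gave p = 0.1, which is the smallest it can give. In bulk RNA, fewer cells of a type and less RNA of these genes per cell cannot be told apart.

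Of the single markers, 24 of 25 were down-regulated and 0 up-regulated, where 2.56% and 0.346% of all genes were. In 16 of the 25 all βOHB libraries lay below all controls, as in 8.34% of all genes, and in the other 9 the groups overlapped. Trem2, a lipid-sensing receptor of macrophages and microglia (ENSMUSG00000023992), was at 7.52, 6.21 and 3.69 CPM in the controls and at 1.47, 1.33 and 2.40 CPM with βOHB. The groups did not overlap, and the log2 change was −1.74 (SE 0.22, adjusted p = 5.9e-05). Cx3cr1, the fractalkine receptor of resident macrophages, went from 9.81, 8.46 and 3.52 CPM to 1.06, 0.98 and 2.35 CPM (log2 −2.30, SE 0.31, adjusted p = 6.97e-05). Tyrobp, the adaptor that TREM2 signals through, went from 18.7, 15.3 and 5.89 CPM to 2.43, 2.27 and 5.14 CPM (log2 −2.01, SE 0.30, adjusted p = 0.000116). In each of the 3 genes control 3 was the lowest control and βOHB 3 the highest treated library.

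Csf1r, the receptor for the growth factor that keeps macrophages alive, was at 45.6, 37.9 and 14.6 CPM in the controls and at 8.68, 5.69 and 13.4 CPM with βOHB (log2 −1.82, SE 0.30, adjusted p = 0.000403). Laptm5, a lysosomal membrane protein of blood cells, was at 55.4, 51.0 and 22.3 CPM and then at 13.3, 10.9 and 20.8 CPM (log2 −1.51, SE 0.25, adjusted p = 0.000373). Itgam, the integrin chain CD11b, was at 11.1, 10.0 and 4.09 CPM and then at 2.57, 2.04 and 3.81 CPM (log2 −1.58, SE 0.27, adjusted p = 0.000421). In these genes too the βOHB libraries lay below every control, by a small margin between control 3 and βOHB 3. Mertk, a receptor for the uptake of dying cells, was the marker not called, with a log2 change of −0.35 (adjusted p = 0.232). Without control 1, 19 of the 25 markers were called.

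**Figure D2:**
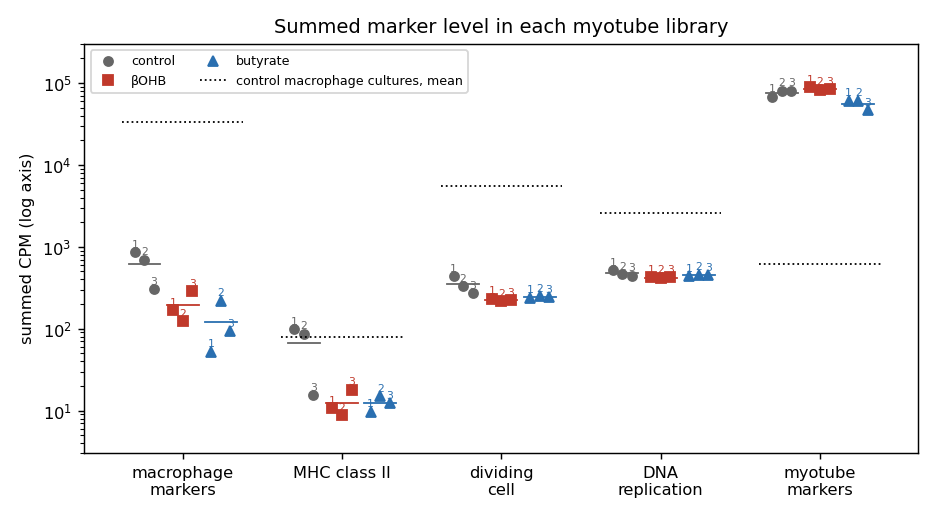
Summed CPM of 5 gene lists (x axis) in each myotube library (y axis, log scale). Numbers beside points are the replicate, short bars are group means and dotted lines are the mean of the control BMDM libraries. Macrophage markers lie between 303 and 855 CPM in controls and between 124 and 289 CPM with βOHB, while myotube markers lie between 68200 and 89270 CPM in the control and βOHB libraries.

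Of the macrophage class outside every list, 6 genes were chosen by their p-value. Adam8, a membrane metalloprotease, fell from 13.8, 9.95 and 6.86 CPM to 3.77, 2.80 and 5.19 CPM (log2 −1.38, SE 0.18, adjusted p = 5.9e-05). Tifab, a regulator of NF-κB signalling, fell from 3.76, 2.86 and 0.97 CPM to 0.23, 0.04 and 0.44 CPM, the deepest change of the class at −3.36 (SE 0.45, adjusted p = 6.97e-05). Plxnc1, a semaphorin receptor, changed by −1.75. Cd84, an adhesion receptor of leukocytes, changed by −1.70. Clec7a, the β-glucan receptor Dectin-1, changed by −2.36. Arhgap9, a GTPase-activating protein of blood cells, changed by −2.06. The adjusted p of the last 4 lay between 6.97e-05 and 8.79e-05, and none of the 6 had overlapping groups.

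MHC class II genes, which present peptides to helper T cells, were down-regulated in 6 of 8 cases, where 2.56% of all genes were, with a list median of −2.50. limma-voom called 5 of them and DESeq2 6. Cd74, the invariant chain, was at 57.1, 48.0 and 6.69 CPM in the controls and at 4.36, 3.15 and 8.12 CPM with βOHB (log2 −2.83, SE 0.41, adjusted p = 9.64e-05). H2-Aa was at 13.1, 11.9 and 1.76 CPM and then at 1.19, 0.40 and 2.31 CPM (log2 −2.77, SE 0.45, adjusted p = 0.000394). H2-Ab1 was at 10.6, 10.5 and 1.10 CPM and then at 1.19, 0.80 and 1.73 CPM (log2 −2.57, SE 0.46, adjusted p = 0.000786). In these 3 genes control 3 stood inside the range of the treated libraries, and the difference lay in controls 1 and 2. In 1 of the 8 genes, H2-Eb1, all βOHB libraries lay below all controls, an order met by 8.34% of all genes.

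H2-Eb1, a β chain of the same complex, was at 6.60, 5.99 and 1.32 CPM in the controls and at 0.69, 0.67 and 0.80 CPM with βOHB (log2 −2.68, SE 0.38, adjusted p = 8.79e-05). H2-DMb1, which helps to load peptides, changed by −2.43 (SE 0.43, adjusted p = 0.000719). H2-DMa, its partner, changed by −0.72 (SE 0.16, adjusted p = 0.00674). Ciita, the master activator of the class, had a log2 change of −1.37 and was not called (adjusted p = 0.0918). The summed level of the list was 67.4 ± 45.4 CPM (SD, n = 3) in controls and 12.5 ± 4.83 CPM (SD, n = 3) with βOHB, with an exact permutation p of 0.2. In control BMDMs it was 78.8 CPM. Controls 1 and 2 of the myotubes stood at 126% and 111% of that level, where their macrophage markers stood at 2.59% and 2.11%.

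Of 18 genes of Fc receptors and their signalling proteins 16 were down-regulated, where 2.56% of all genes were, with a median of −1.60. limma-voom called 14 and DESeq2 16. Fcgr3, a low-affinity receptor for IgG, was at 8.62, 7.27 and 3.78 CPM in the controls and at 1.70, 1.91 and 2.44 CPM with βOHB (log2 −1.69, SE 0.22, adjusted p = 5.9e-05). Btk, a kinase of the same pathway, was at 2.80, 1.85 and 1.45 CPM and then at 0.37, 0.31 and 0.89 CPM (log2 −1.94, SE 0.28, adjusted p = 9.95e-05). Syk, which binds phosphorylated ITAM motifs, changed by −1.09. Sirpa, which receives the CD47 signal, was at 59.9, 52.0 and 30.9 CPM and then at 25.7, 24.3 and 31.4 CPM. There control 3 lay below βOHB 3, and the log2 change of −0.81 was called (SE 0.14, adjusted p = 0.00051). Fgr and Lyn were the 2 not called, at −1.45 (adjusted p = 0.0866) and −0.19 (adjusted p = 0.207).

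The NADPH oxidase of phagocytes, which makes superoxide, had 5 of 6 subunits down-regulated, where 2.56% of all genes were, with a median of −1.69. limma-voom called 4 and DESeq2 5. Ncf1 was at 16.7, 13.4 and 6.86 CPM and then at 2.98, 3.51 and 5.01 CPM (log2 −1.68, SE 0.22, adjusted p = 5.9e-05). Cybb, the catalytic subunit, changed by −1.98 (SE 0.34, adjusted p = 0.00051). Cyba, which is not confined to phagocytes, had a log2 change of −0.59 and was not called (adjusted p = 0.134).

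Complement genes were down-regulated in 6 of 13 cases, where 2.56% of all genes were, and in 6 by limma-voom, by DESeq2 and in each fit that left out 1 library. Among them were the 3 chains of C1q, the trigger of the classical pathway, which macrophages make. C1qb was at 52.6, 47.6 and 17.9 CPM and then at 8.91, 6.09 and 16.3 CPM (log2 −1.91, SE 0.34, adjusted p = 0.000614). C1qa changed by −2.02, and C1qc was called as well (adjusted p = 0.000421). C3, which many cells make, was at 1.10, 1.06 and 0.66 CPM and then at 0.14, 0.27 and 3.59 CPM, and was not called (adjusted p = 0.886). Its levels in βOHB 1 and 2 lay below every control, and βOHB 3 is the library that carried hepatocyte RNA. The part of that RNA in the C3 level was not tested.

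Lists that mix macrophage genes with genes of other cells were down-regulated in part. Chemokines and their receptors had 10 of 22 genes down-regulated, cytokines and their receptors 12 of 26, Toll-like receptors 7 of 15, macrophage transcription factors 10 of 16, genes of resident macrophages 5 of 10 and genes of lipid-handling macrophages 7 of 16, where 2.56% of all genes were. None of these lists had an up-regulated member. In the same order of lists, limma-voom called 7, 8, 6, 8, 3 and 6 genes down-regulated and DESeq2 10, 11, 8, 9, 5 and 8. Without control 1 the cytokine list had 5, the list of resident macrophages 3 and the lipid-handling list 3 down-regulated. Without control 2 the cytokine list had 7, the transcription factors 6 and the resident macrophages 3. Without βOHB 1 the resident macrophages had 3, and without βOHB 2 the cytokine list had 7, the transcription factors 6, the resident macrophages 3 and the lipid-handling list 3. Ccr1, a chemokine receptor, was at 7.98, 7.27 and 2.60 CPM and then at 1.148, 1.199 and 2.395 CPM (log2 −1.90, SE 0.32, adjusted p = 0.000555). Control BMDMs held only 14.2 CPM of Ccr1. Tlr7, a sensor of single-stranded RNA, was at 13.4, 10.9 and 5.01 CPM and then at 3.08, 1.38 and 4.21 CPM (log2 −1.75, SE 0.25, adjusted p = 8.79e-05).

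MHC class I and immunoproteasome genes had 3 of 10 down-regulated, namely Psmb8, H2-D1 and Nlrc5, where 2.56% of all genes were. limma-voom called 0 of them and DESeq2 6. edgeR called 0 without control 1, control 2, βOHB 1 or βOHB 2, 5 without control 3 and 2 without βOHB 3. Interferon-response genes had 2 of 20, among them Slfn5, with 1 by limma-voom, 3 by DESeq2 and 0 without control 1. Lysosomal genes had 4 of 27, namely Ctsc, Man2b1, Naglu and Gusb, with 2 by limma-voom, 8 by DESeq2, 1 without control 1, control 2, βOHB 1 or βOHB 2, and 8 without control 3. Ctsc, a lysosomal protease, was at 65.8, 60.5 and 50.2 CPM and then at 40.7, 40.8 and 43.5 CPM (log2 −0.50, SE 0.09, adjusted p = 0.00118).

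**Figure D3:**
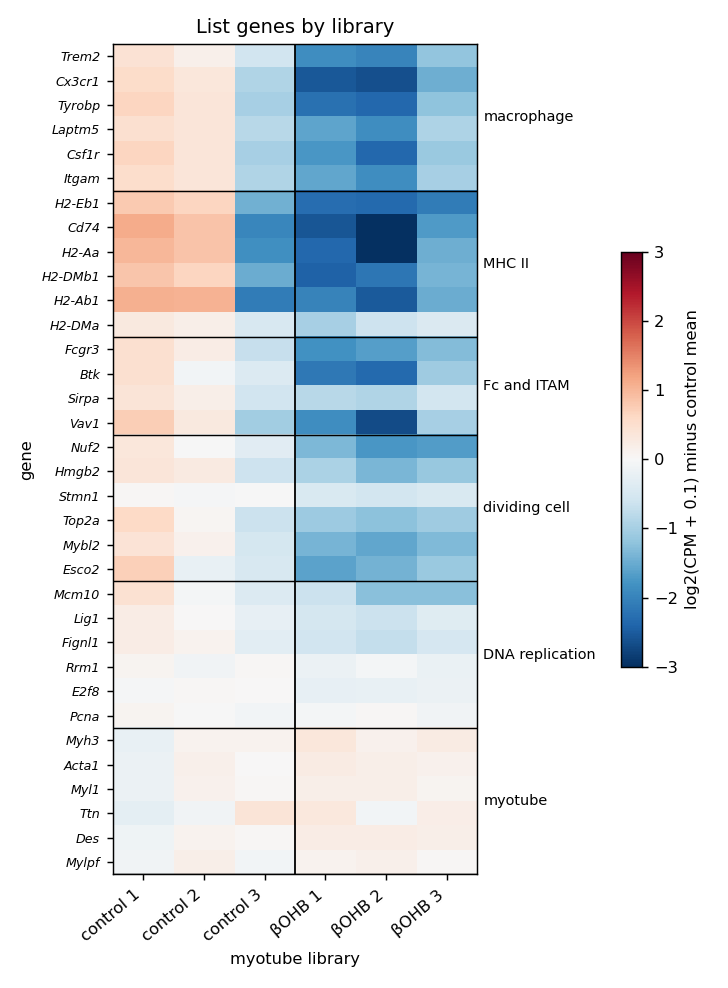
Level of list genes (rows) in each control and βOHB library (columns), as log2 of CPM plus 0.1 minus the mean of the 3 controls. Macrophage, MHC class II and Fc receptor genes are lower in βOHB 1 and 2 than in controls 1 and 2, control 3 is their lowest control, and the myotube genes at the foot stay near 0.

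These genes gave no calls in the macrophage cultures. There βOHB against control called 0 genes in either direction by edgeR, 0 by limma-voom and 2 by DESeq2, and 181 genes were lower and 177 higher at an unadjusted P under 0.05. The 128 macrophage-class genes down-regulated in myotubes had log2 changes between −3.36 and −0.37 there and between −0.16 and 0.26 in BMDMs. Myotube and BMDM cultures were treated in different media, so cell type and medium cannot be told apart. The difference between both responses was tested as an interaction. It was called in 253 genes, of which 249 (1.62%) had the lower log2 change in myotube cultures and 4 (0.0261%) the higher. Of the 249, 108 were of the macrophage class. Csf1r had a log2 change of 0.03 in BMDMs and −1.82 in myotube cultures, a difference of −1.85 (adjusted p = 0.00759). Without control 1 the number of differences was 72, without control 2 it was 122, without βOHB 1 it was 133, without βOHB 2 it was 83 and without control 3 it was 404.

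**Figure D4:**
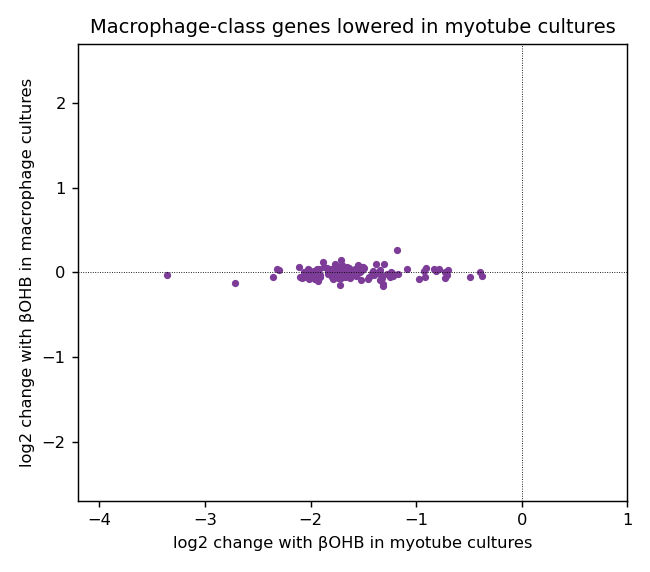
Log2 change with βOHB in myotube cultures (x axis) and in BMDM cultures (y axis) of the 128 macrophage-class genes down-regulated in myotube cultures, chosen on the x axis. The points spread from −3.36 to −0.37 along x and stay between −0.16 and 0.26 along y.

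Genes of dividing cells were the second group with down-regulated members. Of 56 genes of mitosis, 17 were down-regulated, 55 had a fitted change under 0 and 41 had all βOHB libraries below all controls, against 2.56%, 41.7% and 8.34% of all genes. The list median was −0.85. The 17 calls became 4 by limma-voom, 32 by DESeq2, 2 without control 1, 6 without control 2, 26 without control 3, 8 without βOHB 1, 2 without βOHB 2 and 7 without βOHB 3. The sum was 437, 333 and 273 CPM in controls 1, 2 and 3 and 233, 218 and 224 CPM with βOHB, with means of 347 ± 83.2 and 225 ± 7.6 CPM (SD, n = 3; exact permutation p = 0.1, the smallest possible). Controls varied more than treated libraries. Control BMDMs held 5573 CPM of the same genes, and the part of macrophages in this result was not tested.

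Nuf2, a kinetochore subunit, was at 3.35, 2.60 and 2.07 CPM and then at 0.96, 0.71 and 0.75 CPM (log2 −1.71, SE 0.34, adjusted p = 0.00202). Hmgb2, a chromatin protein of proliferating cells, was at 9.26, 8.68 and 4.62 CPM and then at 3.67, 2.71 and 3.24 CPM (log2 −1.23, SE 0.25, adjusted p = 0.00308). Stmn1, which destabilises microtubules, was at 22.2, 21.0 and 21.6 CPM and then at 15.8, 14.6 and 15.8 CPM (log2 −0.49, SE 0.11, adjusted p = 0.00517). For Stmn1 control 3 did not stand apart from controls 1 and 2. Top2a, the topoisomerase that untangles chromosomes, changed by −1.22, Mybl2, a transcription factor of the cell cycle, by −1.67, and Esco2, a cohesin acetyltransferase, by −1.61, with adjusted p between 0.00646 and 0.014. limma-voom did not call Top2a or Esco2. Hmgb2, Top2a, Mybl2 and Esco2 lost the call without control 1, Stmn1, Top2a, Mybl2 and Esco2 without βOHB 2, and Esco2 also without βOHB 1.

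Of 50 replication genes 3 were down-regulated, where 2.56% of all genes were, and their median was −0.21. limma-voom called 0 of them and DESeq2 7, and edgeR called 0 without control 1, control 2 or βOHB 2, 1 without βOHB 3 and 5 without control 3. The 3 were Mcm10 (log2 −1.19, adjusted p = 0.0399), Lig1 (log2 −0.53, adjusted p = 0.0417) and Fignl1 (log2 −0.64, adjusted p = 0.0472). The sum of all 50 genes was 474 ± 38.6 CPM (SD, n = 3) in controls and 422 ± 3.12 CPM (SD, n = 3) with βOHB. Of the 106 genes of both lists 20 were down-regulated, and 7 of the 106 were also macrophage genes. Among the 99 others, 17 were called. The 20 became 4 by limma-voom, 39 by DESeq2, 2 without control 1, 6 without control 2, 31 without control 3, 10 without βOHB 1, 2 without βOHB 2 and 8 without βOHB 3. Genes of cell cycle entry and exit gave 0 calls among 19, and 0 by limma-voom and DESeq2. At an unadjusted P under 0.05, 2 of them were lower and 1 higher, where 7.01% and 6.7% of all genes were.

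Promoters are shown for the 3 down-regulated genes of smallest p in each of the macrophage and mitotic lists that the reference table holds, because each of these lists held down-regulated genes. Each window runs from 250 bases before to 50 bases after the start site, 5′ to 3′ on the strand of the gene, in RefSeq's mouse build GRCm38.p6. The table held 18 of the 25 macrophage and 46 of the 56 mitotic genes. Capitals mark any match, on either strand, to CCAAT, the box bound by NF-Y, to CACTTCC or GAGGAAG, which PU.1 and other ETS factors read, to TTTGAA or TTCGAA, found in promoters of mitotic genes, to GGCGGGA or TTGGCGC, read by E2F factors, or to CAGCTG, an E box.
Trem2, chr17:48346151-48346450, plus strand: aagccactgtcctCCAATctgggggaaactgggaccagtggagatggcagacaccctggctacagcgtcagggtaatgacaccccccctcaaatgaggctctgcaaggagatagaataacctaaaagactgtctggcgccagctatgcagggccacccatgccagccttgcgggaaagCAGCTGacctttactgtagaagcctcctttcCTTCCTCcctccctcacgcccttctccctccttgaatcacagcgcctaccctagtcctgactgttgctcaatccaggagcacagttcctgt
Cx3cr1, chr9:120068247-120068546, minus strand: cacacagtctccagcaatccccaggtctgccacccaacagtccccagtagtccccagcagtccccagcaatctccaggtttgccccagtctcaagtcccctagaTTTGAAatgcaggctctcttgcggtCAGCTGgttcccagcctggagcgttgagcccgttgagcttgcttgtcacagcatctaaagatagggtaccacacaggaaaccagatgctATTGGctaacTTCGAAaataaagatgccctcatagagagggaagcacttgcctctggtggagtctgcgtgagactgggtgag
Laptm5, chr4:130913066-130913365, plus strand: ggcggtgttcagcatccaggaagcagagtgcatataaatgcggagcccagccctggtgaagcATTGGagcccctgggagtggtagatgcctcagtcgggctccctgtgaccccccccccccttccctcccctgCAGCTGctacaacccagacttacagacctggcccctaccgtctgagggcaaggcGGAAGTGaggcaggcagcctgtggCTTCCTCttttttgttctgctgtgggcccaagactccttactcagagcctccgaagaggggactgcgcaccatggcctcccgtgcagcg
Nuf2, chr1:169531415-169531714, minus strand: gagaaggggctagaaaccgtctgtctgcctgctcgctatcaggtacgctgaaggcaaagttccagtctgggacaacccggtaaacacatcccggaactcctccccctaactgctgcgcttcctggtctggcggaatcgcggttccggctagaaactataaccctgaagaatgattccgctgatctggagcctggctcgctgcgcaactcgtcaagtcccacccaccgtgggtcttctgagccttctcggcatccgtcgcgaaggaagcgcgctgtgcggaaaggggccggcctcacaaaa
Hmgb2, chr8:57511593-57511892, plus strand: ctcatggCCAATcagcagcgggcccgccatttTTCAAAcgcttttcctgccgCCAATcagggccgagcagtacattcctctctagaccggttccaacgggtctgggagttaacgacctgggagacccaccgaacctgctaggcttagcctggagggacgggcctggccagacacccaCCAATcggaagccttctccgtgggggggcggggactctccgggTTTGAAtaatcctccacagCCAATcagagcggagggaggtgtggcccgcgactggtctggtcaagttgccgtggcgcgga
Top2a, chr11:99024140-99024439, minus strand: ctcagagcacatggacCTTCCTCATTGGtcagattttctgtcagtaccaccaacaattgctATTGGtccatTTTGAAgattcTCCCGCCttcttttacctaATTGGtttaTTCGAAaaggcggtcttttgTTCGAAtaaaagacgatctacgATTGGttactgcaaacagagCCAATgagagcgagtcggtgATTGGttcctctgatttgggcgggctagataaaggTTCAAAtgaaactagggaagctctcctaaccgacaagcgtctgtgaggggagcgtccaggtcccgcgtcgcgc
The Top2a window held 6 CCAAT matches and the Hmgb2 window 4, and each held 2 TTTGAA matches. No motif searched was found in the Nuf2 window. Each macrophage window held 1 CAGCTG and 1 CCAAT, and those of Trem2 and Laptm5 held GAGGAAG. The CCAAT box stood in 35 of 46 mitotic, 6 of 18 macrophage and 37.9% of all 27025 promoters. TTTGAA stood in 35 of 46, 4 of 18 and 18.1%. TTCGAA stood in 4 of 46, 1 of 18 and 1.57%. GAGGAAG stood in 5 of 46, 6 of 18 and 13.5%, and CACTTCC in 6 of 46, 5 of 18 and 11.2%. GGCGGGA stood in 11 of 46, 1 of 18 and 11.4%, TTGGCGC in 6 of 46, 0 of 18 and 2.54%, and CAGCTG in 7 of 46, 7 of 18 and 16.1%. A match describes letters and not a bound site.

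Myotube genes gave no calls. Of 45 genes of contraction and muscle identity, 0 were called in either direction, 0 passed an unadjusted P under 0.05, and limma-voom and DESeq2 called 0. All 45 had a fitted change above 0, where 57.1% of all genes had, and 19 had all βOHB libraries above all controls, where 14.6% had. The median was 0.15 and the range 0.06 to 0.32. Their sum was 68200, 80950 and 80690 CPM in the controls and 89270, 83220 and 84380 CPM with βOHB, with an exact permutation p of 0.1. Control 1, the library with the most macrophage RNA, had the lowest sum. Controls 2 and 3 had near-equal sums, though their macrophage markers summed to 697 and 303 CPM. A link between both sums was not tested. Acta1 was at 6987, 8738 and 7985 CPM in the controls and at 9381, 8901 and 8574 CPM with βOHB, a log2 change of 0.18 (adjusted p = 0.685). Myog, which drives differentiation, had a log2 change of 0.12 (adjusted p = 0.812), Des, desmin, 0.20 (adjusted p = 0.686), and Ckm, muscle creatine kinase, 0.21 (adjusted p = 0.536).

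Genes of energy use gave no calls by edgeR. Of 23 citric acid cycle genes 0 were called, 19 had all βOHB libraries above all controls and 11 were higher at an unadjusted P under 0.05, where 14.6% and 6.7% of all genes were, and limma-voom called 0 and DESeq2 1. Their median was 0.16 and their sum 4560 ± 215 CPM (SD, n = 3) in controls and 5090 ± 76.7 CPM (SD, n = 3) with βOHB. Cs, citrate synthase, was at 387, 426 and 425 CPM and then at 468, 480 and 452 CPM (log2 0.18, adjusted p = 0.109). Glycolysis gave 0 calls among 22 genes and a median of 0.19, with 5 higher at an unadjusted P under 0.05. Nuclear genes of the respiratory chain gave 0 among 75 and a median of 0.12, with 21 higher at an unadjusted P under 0.05, and the 13 genes of the mitochondrial genome gave 0 among 13 with 0 at an unadjusted P under 0.05. limma-voom and DESeq2 called none in these last 3 lists. These medians depend on the scaling. With library totals alone they were 0.10 for the citric acid cycle, 0.13 for glycolysis, 0.06 for the nuclear genes of the respiratory chain and 0.09 for the 45 myotube genes, and all stayed above 0.

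Of 15 genes of ketone body use, transport and sensing, 2 were down-regulated and 0 up-regulated, where 2.56% and 0.346% of all genes were. At an unadjusted P under 0.05, 3 were lower and 2 higher, where 7.01% and 6.7% of all genes were. limma-voom called 1 down-regulated and DESeq2 3. edgeR called 0 without control 1, βOHB 1 or βOHB 2, 1 without control 2 or βOHB 3, and 3 without control 3. Oxct1, which activates acetoacetate, was at 106, 122 and 111 CPM and then at 133, 138 and 121 CPM (log2 0.21, adjusted p = 0.148). Bdh1, which oxidises βOHB, was at 1.79, 1.63 and 1.45 CPM and then at 2.39, 2.04 and 2.31 CPM, without overlap (log2 0.47, adjusted p = 0.163). Slc16a1, the transporter MCT1, had a log2 change of 0.01. Slc16a6, a transporter of βOHB out of cells, was down-regulated from 8.16, 7.27 and 6.73 CPM to 3.86, 4.18 and 5.94 CPM (log2 −0.66, SE 0.15, adjusted p = 0.00674). Emb, an ancillary protein of these transporters, was down-regulated at the threshold (log2 −0.41, SE 0.12, adjusted p = 0.0498). Control BMDMs held 23.5 CPM of Slc16a6 and 83.3 CPM of Emb.

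Genes proposed elsewhere as targets of βOHB gave 0 calls among 9, with 0 by limma-voom and 1 by DESeq2. At an unadjusted P under 0.05, 2 were lower and 1 higher, where 7.01% and 6.7% of all genes were. Foxo3, a transcription factor of stress resistance, had a log2 change of 0.02, Cat, catalase, −0.10, Sod2, mitochondrial superoxide dismutase, 0.19, Bdnf, a neurotrophic factor, 0.01, and Hk2, hexokinase 2, −0.02. Histone deacetylase genes gave 0 calls among 11, with 1 at an unadjusted P under 0.05, 0 by limma-voom and 1 by DESeq2. Lists of the circadian clock, fatty acid oxidation, muscle atrophy, amino acid stress, immediate early genes, myoblasts and genes the study named for butyrate gave 0 calls in each direction by edgeR, limma-voom and DESeq2, with between 0 and 5 genes a list at an unadjusted P under 0.05.

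Most down-regulated genes outside these classes were also higher in BMDMs. Of 15003 genes in none of the classes, 248 were down-regulated and 53 up-regulated, where 2.56% and 0.346% of all genes were. Among the 568 whose level in BMDMs was at least 4 times that in adipocytes and in hepatocytes after adding 1 CPM, 148 (26.1%) were down-regulated, with a median of −0.38. Among the other 14435, 100 (0.693%) were down-regulated, with a median of 0.03. In 235 of the 248 the level in control BMDMs was above that in control myotubes, as it was in 45.8% of all 15003. Of all 393 down-regulated genes it was in 380, and of all genes tested in 46.6%. The 248 calls became 181 by limma-voom, 373 by DESeq2, 90 without control 1, 160 without control 2 and 353 without control 3. They became 136 without βOHB 1, 114 without βOHB 2 and 208 without βOHB 3.

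The 12 genes that follow next, Kcnj10 included, were in none of the classes and in no list. They were chosen by their p-value among genes with all βOHB libraries below all controls, so that order is no result. Ptpn7, a phosphatase of blood cells, was at 4.68, 3.83 and 2.38 CPM and then at 1.06, 0.71 and 1.38 CPM (log2 −1.78, SE 0.23, adjusted p = 5.9e-05). Cotl1, an actin-binding protein, was at 40.6, 31.6 and 20.9 CPM and then at 15.7, 16.0 and 16.7 CPM (log2 −0.94, SE 0.13, adjusted p = 8.79e-05). Control BMDMs held 79.5 CPM of Ptpn7 and 387 CPM of Cotl1. Ms4a6b, Ms4a6c and Ms4a6d, membrane proteins of one gene cluster, changed by −2.57, −1.94 and −2.01. The members of this family resemble each other, so reads may have been divided between them. Nrros, which holds latent TGF-β, changed by −1.50, P2ry6, a receptor for UDP, by −1.77, Cd93, a receptor of phagocytes and endothelium, by −1.28, Cyth4, an exchange factor of ARF proteins, by −1.81, Neurl3, a ubiquitin ligase, by −1.57, and Rinl, a RAB5 exchange factor, by −1.52. The adjusted p of these 9 genes ran from 8.79e-05 to 0.00025, and control BMDMs held between 27.8 and 551 CPM of each.

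Kcnj10, an inward-rectifier potassium channel, had only 6.47 CPM in control BMDMs. In the myotube libraries it was at 3.76, 2.82 and 1.72 CPM and then at 0.23, 0.31 and 1.11 CPM (log2 −2.31, SE 0.35, adjusted p = 0.000124). Clec4a1 and Apoc2 are given because the study names them. Clec4a1, a C-type lectin of myeloid cells, was at 1.19, 0.88 and 0.40 CPM and then at 0, 0 and 0.18 CPM (log2 −3.65, SE 0.56, adjusted p = 0.000166). A value of 0 there stands for no estimated count, and at this depth a level under about 3 counts could not be seen. Control BMDMs held only 4.70 CPM of Clec4a1. Apoc2, a cofactor of lipoprotein lipase, was at 0.92, 0.79 and 0.40 CPM and then at 0, 0 and 0.49 CPM. It was not called by edgeR (log2 −2.05, adjusted p = 0.292) or limma-voom (adjusted p = 0.0682), but was by DESeq2 (adjusted p = 0.048). Among treated libraries only βOHB 3, which carried hepatocyte RNA, held counts of it. Control hepatocytes held 284 CPM of Apoc2, and the part of that RNA was not tested. The paper reports a lower Apoc2 level with βOHB by qPCR.

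Down-regulated genes that BMDMs hold at no higher level were few. Of 8103 genes that were in none of the classes, under the ratio of 4 and at or below the myotube level in BMDMs, 11 were down-regulated, against 2.56% of all genes tested. They are named here after their values were seen: H2-Eb1, H2-Ab1, Abcg3, Hal, Pde1a, Cx3cl1, Pdzd2, Tek, Rps2-ps13, 4933421O10Rik and Gm29216. Abcg3, a membrane transporter, was at 4.59, 4.89 and 2.07 CPM and then at 0.60, 0.31 and 1.38 CPM (log2 −2.33, SE 0.38, adjusted p = 0.000361). Hal, histidine ammonia-lyase, was at 1.56, 1.89 and 1.36 CPM and then at 0.23, 0.18 and 0.80 CPM (log2 −1.98, SE 0.35, adjusted p = 0.000713). For Hal the lowest control was control 3 by a small margin, and every treated library lay below it.

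Cx3cl1, fractalkine, the ligand of the Cx3cr1 receptor, was at 27.2, 25.7 and 28.9 CPM and then at 20.4, 22.5 and 19.7 CPM (log2 −0.39, SE 0.11, adjusted p = 0.0393). Control 3 was its highest control, BMDMs held 8.15 CPM, and the call was lost in each of the 6 fits that left out 1 library. Pde1a, a calcium-dependent phosphodiesterase, was at 5.23, 3.83 and 7.04 CPM and then at 3.67, 2.93 and 2.93 CPM (log2 −0.76, SE 0.18, adjusted p = 0.0148). Its highest control was control 3, and its call was kept in 2 of the 6 fits. Pdzd2, a scaffold protein, changed by −0.52 (adjusted p = 0.0378), and its call was kept in 1 of the 6. Tek, the angiopoietin receptor of endothelium, rested on control 1 alone, with 8.53 CPM there against between 0.26 and 0.87 CPM in the other 5, and its log2 change of −2.55 turned to 0.25 without that library. Rps2-ps13 and Gm29216 are pseudogenes, whose reads may stem from their parent genes. Gm29216 was at 158, 11.1 and 46.0 CPM and then at 11.6, 6.00 and 3.99 CPM, was not called by limma-voom (adjusted p = 0.18) and had an adjusted p of 0.54 without control 1. Its call was kept in 2 of the 6 fits, that of 4933421O10Rik in 2 and that of Rps2-ps13 in 3. limma-voom did not call Pde1a, Pdzd2, Tek or H2-Ab1 either.

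The 53 up-regulated genes were in none of the classes, and 48 of them had a log2 change under 1. The 12 named first were chosen by their p-value among genes with all βOHB libraries above all controls, so that order is no result. Slc38a2, the SNAT2 transporter of neutral amino acids (chromosome 15, 96687392 to 96699730, GRCm38.p6), led by p-value. It was at 323, 351 and 362 CPM in the controls and at 446, 440 and 420 CPM with βOHB (log2 0.34, SE 0.06, adjusted p = 0.00121). The call was kept in each of the 6 fits that left out 1 library. 1700021F05Rik rose from 24.4, 24.4 and 25.8 CPM to 31.4, 33.5 and 30.2 CPM (log2 0.35, SE 0.07, adjusted p = 0.00123). Srrt, an RNA-processing protein, rose from 49.5, 47.2 and 47.1 CPM to 56.9, 65.5 and 58.5 CPM (log2 0.33, SE 0.06, adjusted p = 0.0015). Both were also kept in each of the 6 fits.

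Rgs4, a brake on G protein signalling, was at 2.25, 2.77 and 2.60 CPM and then at 5.33, 4.44 and 3.50 CPM, the largest change at this level among the named genes (log2 0.80, SE 0.18, adjusted p = 0.0078). Fam131c, at 0.32, 0.26 and 0.75 CPM and then at 0.87, 1.16 and 1.11 CPM, changed by 1.22, and Xlr3b, at 0.55, 0.18 and 0.53 CPM and then at 0.96, 1.16 and 0.98 CPM, by 1.30. These low levels rest on few reads. Xlr3b has near copies in its cluster on the X chromosome, so its reads are uncertain.

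Eed, a subunit of the Polycomb complex PRC2, changed by 0.26 (adjusted p = 0.0141), Acin1, a splicing factor, by 0.20 (adjusted p = 0.0142), Nfic, a transcription factor, by 0.26 (adjusted p = 0.017), Carhsp1, an RNA-binding protein, by 0.18 (adjusted p = 0.0161), Tbc1d10b, a GTPase-activating protein of RAB proteins, by 0.22 (adjusted p = 0.00674) and 6430548M08Rik by 0.37 (adjusted p = 0.00927). Of the 6 fits that left out 1 library, the call was kept in 5 for Tbc1d10b, in 4 for Rgs4, Eed and Xlr3b, in 3 for Fam131c, Acin1, Nfic and 6430548M08Rik, and in 2 for Carhsp1. Acin1 was at 109, 108 and 113 CPM in the controls and then at 126, 132 and 122 CPM.

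**Figure D5:**
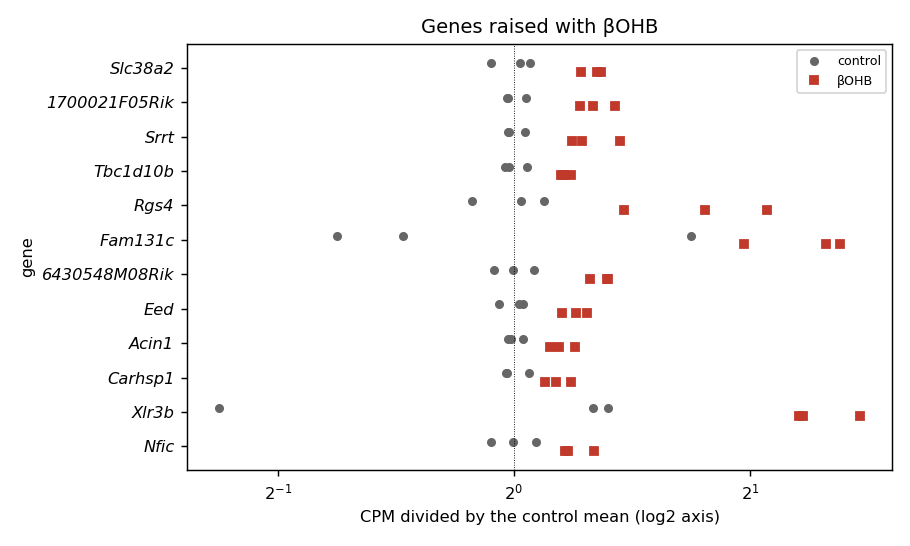
CPM of the 12 named up-regulated genes divided by the mean of the 3 controls (x axis, log2 scale), with controls as grey circles and βOHB libraries as red squares. The genes were chosen so that all 3 treated libraries lie to the right of all 3 controls. The shift is small beside 1, except for Rgs4, Fam131c and Xlr3b.

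The number of up-regulated genes depended on the fit. It was 6 without control 1, 23 without control 2, 15 without βOHB 1, 10 without βOHB 2 and 31 without βOHB 3. It was 25 with RLE scaling, 13 with library totals alone and 20 with TMM factors computed without macrophage genes. Alb, albumin, was called through βOHB 3 alone, at 18.4 CPM there and at no more than 0.044 CPM in the other 5 libraries, and was not called without it (adjusted p = 0.944). Lum, a proteoglycan of fibroblasts, rose from 0.32, 0.48 and 0.40 CPM to 0.74, 1.42 and 0.71 CPM (log2 1.24, adjusted p = 0.0465). Of 14 fibroblast markers edgeR called Lum alone, where 0.346% of all genes were up-regulated. limma-voom called 0 of the 14 and DESeq2 1 in each direction. Lum kept its call in 2 of the 6 fits that left out 1 library.

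Markers of other cells of muscle gave few calls, where 2.56% of all genes were down-regulated and 0.346% up-regulated. Endothelial markers had 1 down-regulated of 12, which was Tek, and adipocyte, smooth muscle, pericyte and mast cell markers had 0. In these lists, the endothelial one included, limma-voom called 0 and DESeq2 1. Between 0 and 2 genes a list passed an unadjusted P under 0.05, where 7.01% of all genes were lower and 6.7% higher. Among markers of T and NK cells, 3 of 10 were tested, and Cd28 was down-regulated (log2 −0.83, SE 0.15, adjusted p = 0.000582). Control BMDMs held 217 CPM of Cd28, well over the 8.58, 10.0 and 9.11 CPM of the myotube controls. Csf3r of the neutrophil list, Itgax of the dendritic cell list, Ccr2 of the monocyte list, Mbp of the Schwann cell list and Atp6v0d2 of the osteoclast list were each the single down-regulated gene of their list. Control BMDMs held between 6.43 and 260 CPM of them. Of the 6 fits that left out 1 library, the call was kept in 6 for Cd28 and Mbp, in 5 for Csf3r, in 3 for Itgax and in 2 for Ccr2 and Atp6v0d2. Csf3r, Ccr2 and Atp6v0d2 lost it without control 1 and Itgax without control 2, and limma-voom did not call Ccr2.

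Butyrate, at the same dose and time, was measured in 3 more myotube libraries against the same 3 controls, so values are given side by side. The summed macrophage markers stood at 52.6, 220 and 92.5 CPM with butyrate. The dividing-cell sum stood at 239, 249 and 244 CPM, near the βOHB libraries. The log2 changes with βOHB and with butyrate were −1.74 and −3.64 for Trem2, −1.71 and −2.07 for Nuf2, 0.12 and −1.65 for Myog, and 0.34 and −0.75 for Slc38a2. For Cx3cl1 they were −0.39 and 1.59. Butyrate libraries held between 163 and 2350 CPM of the hepatocyte genes. The shared controls enter both values of each pair.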

How the data were processed

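RNA-seq was made from 36 libraries of 4 primary mouse cell types. The authors quantified filtered reads with Salmon 1.2.1 on GENCODE transcripts of GRCm38.p6 and summed them to genes with tximport, scaled by transcript length and library size. The deposited table holds these estimated counts for 54347 genes, with 0 columns of no sample. These expected counts were rounded to whole numbers here. Per the labels, one column was mapped to each library. Genes above 1 CPM in at least 6 libraries (15340) were kept and scaled by TMM. All 36 libraries entered one edgeR 4.0.16 quasi-likelihood fit with a mean per group (R 4.3.3), and p-values were adjusted by Benjamini-Hochberg over all genes tested. The call was an adjusted p under 0.05. limma-voom 3.58.1, DESeq2 1.42.0, other scalings, other filters, smaller sets of libraries and leaving out each library were alternatives. Libraries held between 18366289 and 23221473 counts. Counts are not molecules, and the SE and p-values of the fits cover the spread between libraries as well as counting error.

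The comparison, the lists and the classes were chosen with earlier results of these data known. Named genes were up to 6 of each list described, called genes of smallest p first and then those of highest control level, the 12 leading genes in each direction in no class with groups that did not overlap, the 6 leading macrophage-enriched genes in no list, and the genes the study names. Outside this rule, C3, Myog, Ckm, Bdh1, Alb, Spp1 and the members not called of lists otherwise called (Mertk, Ciita, Fgr, Lyn) were named after their values were seen, and other exceptions are stated where they are named. Some genes are not reported here. None of the 6 pairs of libraries within the control and βOHB groups was a duplicate. Positions came from a GENCODE annotation and promoters from RefSeq tables, both of GRCm38.p6. Same-numbered control and βOHB libraries did not deviate together (correlations −0.157, −0.082 and −0.209), so no block entered the fit.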

Additional observations from a re-analysis of the deposited data

Results flagged for a closer look

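RNA typical of hepatocytes appeared in βOHB 3. The 244 hepatocyte genes that were under 0.2 CPM in myotube controls summed to 107 CPM there, which is 0.0657% of their sum in hepatocyte libraries and above the 7.65 to 9.26 CPM of the controls.

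The response to βOHB differed between myotube and macrophage cultures in 253 genes by the interaction test in edgeR. The log2 change in myotube cultures minus that in BMDMs is given for some of the genes named above, not for all. Among macrophage markers it was −1.67 for Trem2, −2.33 for Cx3cr1, −2.02 for Tyrobp, −1.54 for Laptm5, −1.85 for Csf1r and −1.62 for Itgam. Among other macrophage-class genes it was −1.48 for Adam8, −3.33 for Tifab, −1.74 for Plxnc1, −1.71 for Cd84, −2.30 for Clec7a and −2.06 for Arhgap9. MHC class II genes gave −2.44 for H2-Eb1, −2.83 for Cd74, −2.71 for H2-Aa, −2.37 for H2-DMb1 and −2.55 for H2-Ab1. Receptors and kinases gave −1.73 for Fcgr3, −1.98 for Btk, −0.79 for Sirpa and −1.13 for Syk. Ccr1 gave −2.12, Clec4a1 −3.50, C1qb −1.86 and C1qc −1.98. Genes in none of the classes gave −1.83 for Ptpn7, −0.86 for Cotl1, −1.58 for Rinl, −1.51 for Nrros, −1.33 for Cd93, −1.59 for Neurl3 and −2.48 for Kcnj10. Cyth4 gave −1.81, P2ry6 −1.81, Ms4a6b −2.51, Ms4a6c −1.83 and Ms4a6d −2.05. Dividing-cell genes gave −1.69 for Nuf2, −1.14 for Hmgb2, −1.74 for Mybl2 and −1.56 for Esco2.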

How the results depend on the processing

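Leaving out 1 library at a time gave between 169 and 528 down-regulated and 6 to 57 up-regulated genes, 74 to 143 macrophage-enriched and 2 to 31 dividing-cell genes down-regulated, 90 to 353 down-regulated and 6 to 57 up-regulated genes outside the classes, and 72 to 404 genes that differed from macrophage cultures. The log2 ratio of the summed macrophage markers ran from −2.08 to −1.37, and it was −0.31 when all macrophage-enriched genes were summed in place of the markers. Spp1, osteopontin, alone held 3848 to 4447 CPM of that sum in the controls and was not called. Fits of the 9 or of the 6 myotube libraries alone gave 0 calls in each count of the response in myotubes. The difference from macrophage cultures could not be fitted there. In the fit of 9 libraries, 147 macrophage-class genes were lower and 0 higher at an unadjusted P under 0.05, and in that of 6 libraries 1464 genes were lower and 997 higher. limma-voom called 4 dividing-cell genes and 158 differences from macrophages. DESeq2 called 39 dividing-cell genes and 373 down-regulated genes outside the classes. Up-regulated genes, all outside the classes, numbered 25 with RLE scaling, 13 with library totals and 20 with TMM factors computed without macrophage genes. Without a filter on low counts there were 798 down-regulated and 97 up-regulated genes, 61 dividing-cell genes, 588 and 96 outside the classes, and 580 differences from macrophages. A ratio of 64 in place of 16 was met by 11 genes, of which 8 were down-regulated. A ratio of 4 with no CPM minimum, chosen after seeing the data, was met by 825 genes, of which 290 were down-regulated, and left 100 down-regulated genes outside the classes. Without 1 library the log2 change of Tek ran from −3.11 to 0.25, above 0 without control 1. The myotube count remained 0 in every alternative. The cause of these shifts was not tested.

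With the replicate number as a block, 366 genes were down-regulated and 44 up-regulated, with 118 macrophage-enriched, 22 dividing-cell and 212 differing genes. The labels do not say whether the numbers pair samples, and correlations over 3 libraries a group cannot decide it. Among all these counts and sums, 61 alternatives moved by over 1.5 times or 1 SD and 80 did not. For named genes, the call was lost in 406 alternatives and gained in 28, and 1 reversed. The other 3495 stayed on the same side of the threshold, genes that were never called included. Depth limits genes near 1 CPM, such as Clec4a1 and Fam131c.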
